A study of Mus musculus with 60 samples.

Results

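TRAV12 and TRAV14 are V segment families of the mouse T cell receptor alpha (TCRA) locus, known by the older names V alpha 8 and V alpha 2. Their members in the undivided numbering are TRAV12-1, TRAV12-2, TRAV12-3, TRAV14-1, TRAV14-2 and TRAV14-3. These 6 segments, among 109 TCRA V segments listed in either of 2 tables (CD4 and CD8 T cells), were followed by their segment name. Rows were found for 5 of them in each table, and TRAV14-2 had none. A further 12 listed segments carry the same numbers with a D or an N, for duplicated copies elsewhere in the locus, and are described apart.

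The study asked how donor T cells that lack STAT3, a factor that drives transcription downstream of cytokines, or STAT3 together with the inhibitory receptor PD-1 alter graft-versus-host disease, in which transplanted T cells attack the recipient. CD90.2+ T cells from C57BL/6 donors that were WT, STAT3ko (Stat3 fl/fl with Cre driven by the CD4 promoter) or STAT3koPD-1ko (the same with PD-1 deleted) were given to lethally irradiated WT BALB/c mice. All recipients also received T cell-depleted bone marrow (TCD-BM) from WT C57BL/6 mice for the hematopoietic cell transplantation (HCT). Donor-type cells were sorted as H-2Kb+TCRβ+ and CD4+ or CD8+, from liver and gut on day 6 after HCT, and each of these samples pooled 3 recipients. The libraries called before HCT here are titled naive in the sample labels and came from spleen. Each table therefore had 15 libraries, 1 before HCT per genotype and 2 from each of liver and gut per genotype. The age of the mice is not given in the sources used here, and the tables hold receptor sequences only, so no CD4 or CD8 transcript was there to check the sort.

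Each alpha chain is made by joining a TRAV segment to a TRAJ segment, and the complementarity determining region 3 (CDR3) spans the junction. The V segment alone encodes CDR1 and CDR2, the loops that lie mostly over the MHC molecule. In the thymus CD4 T cells are selected on MHC class II and CD8 T cells on MHC class I, and some V alpha segments are known to be used unequally by these lineages. V alpha 2 chains are familiar from receptor transgenic mice such as OT-I and OT-II. Joining starts between the V segments nearest the TRAJ array and the TRAJ segments nearest the V segments, which carry the highest numbers, and can then proceed outward on the same chromosome.

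The 3′ ends of the 6 segments are shown because they decide what a CDR3 read can tell about its V segment. They are the last 60 bases of exon 2, on the plus strand of chromosome 14 in GRCm38 (mm10), with the start of the CDR3, from its cysteine codon on, in capitals. TRAV12-1 lies at chr14:53538679-53538738, TRAV14-1 at chr14:53554499-53554558, TRAV12-2 at chr14:53616855-53616914, TRAV12-3 at chr14:53622186-53622245, TRAV14-2 at chr14:53641166-53641225 and TRAV14-3, the nearest to the TRAJ array, at chr14:53763635-53763694.
TRAV12-1: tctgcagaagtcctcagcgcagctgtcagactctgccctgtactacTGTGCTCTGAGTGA
TRAV12-2: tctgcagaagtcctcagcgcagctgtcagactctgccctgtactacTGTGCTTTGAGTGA
TRAV12-3: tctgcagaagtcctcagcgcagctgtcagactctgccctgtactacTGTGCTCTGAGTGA
TRAV14-1: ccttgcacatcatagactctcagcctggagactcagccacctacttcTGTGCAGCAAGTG
TRAV14-2: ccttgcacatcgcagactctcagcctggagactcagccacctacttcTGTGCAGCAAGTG
TRAV14-3: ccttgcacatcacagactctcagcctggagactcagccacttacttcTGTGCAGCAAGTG

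Within a family the CDR3 starts are nearly the same. TRAV12-1 and TRAV12-3 share theirs, TRAV12-2 differs from them by 1 codon, and the TRAV14 members have identical starts, so members must be told apart by bases further upstream. Over the last 270 bases, TRAV14-1 and TRAV14-3 differ at 18 positions, as do TRAV12-1 and TRAV12-3, while TRAV14-2 differs from TRAV14D-2 and from TRAV14N-2 at 7. Most rows began like the germline segment they were named for. Of the rows of a member, 73.8% to 88.1% began with the first 9 germline bases of that member, TGTGCTCTG, TGTGCTTTG or TGTGCAGCA, against 4.47% to 16.6% of all rows of the table.

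Values are percentages of the listed reads of a library, here called usage, and clonotypes were listed when at least 2 libraries held them. The 2 tables hold fractions and not the counts behind them, so depth is unknown here and no counting interval is given. Listed clonotypes held 79.5% to 99.1% of the reads of a library, with the lowest shares in gut replicate 2 of all genotypes. Libraries before HCT shared reads with liver replicate 1 of the same genotype to an unusual degree. In CD4, the overlap, which sums over TRAV14 clonotypes the smaller of their shares of TRAV14 reads in the 2 libraries, was 54.6% ± 5.21 (SD, n = 3) within a genotype and 28.1% ± 2.54 (n = 6) between genotypes, whereas with liver replicate 2 of the same genotype it was 31.9% ± 2.48 (n = 3). The corresponding TRAV12 values in CD8 were 49.3% ± 6.54, 17.5% ± 0.967 and 17.5% ± 1.14, and gut replicate 1 of the same genotype lay between with 29.3% ± 3.81. Between genotypes the value with gut replicate 1 was 20.3% ± 1.70 (n = 6). Without liver replicate 1 of all genotypes, no call of a family changed in any comparison, and 3 members passed for CD8 against CD4 over all tissues, 3 before HCT, 4 in liver and 3 in gut, as with it. With it, 86.7%, 80%, 86.7% and 80% of all segments passed in the same order.

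TRAV12 was used more by CD8 T cells and TRAV14 more by CD4 T cells, in every tissue and genotype sampled. In CD4 libraries TRAV12 usage had a lowest value of 1.096%, a median of 1.63% and a highest of 1.79% (mean 1.56% ± 0.204, SD, n = 15). In CD8 libraries the corresponding values were 3.25%, 3.70% and 4.51% (3.75% ± 0.349, n = 15). TRAV14 usage was 2.24%, 3.01% and 3.87% in CD4 (3.05% ± 0.385, n = 15), and 0.6249%, 0.819% and 1.02% in CD8 (0.805% ± 0.113, n = 15). The ranges of the 2 cell types did not overlap for either family, and the direction was the same in 15 of 15 pairs of libraries with the same tissue, genotype and replicate number. For how many other families or segments the ranges do not overlap is not given here.

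The mean TRAV12 usage was thus 2.40 times as high in CD8 as in CD4, and the mean TRAV14 usage 3.78 times as high in CD4 as in CD8. These folds depended on the V names, and with the CD8 table's names for CDR3 listed in both tables the TRAV12 means were 2.68% in CD4 and 3.75% in CD8, while with the CD4 table's names the TRAV14 means were 3.05% and 1.18%. Within a library, the ratio of TRAV12 to TRAV14 reads ran from 0.327 to 0.681 in CD4 and from 3.85 to 5.92 in CD8. On the log2(percent + 0.1) scale, on which changes of rare segments are understated, TRAV12 differed by 1.22 (CD8 minus CD4, SE 0.06) and TRAV14 by -1.80 (SE 0.06), with adjusted p-values of 4.00e-16 and 3.86e-21 (limma, Benjamini-Hochberg over 30 families). Most families differed in this way, since 83.3% of those tested passed, 8 of them higher in CD8 and 17 higher in CD4. By size of the difference TRAV12 was the third of 30 from the CD8 side and TRAV14 the second from the CD4 side. Without liver replicate 1 of all genotypes the differences were 1.22 and -1.78, and without gut replicate 2 they were 1.15 and -1.76.

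**Figure D1:**
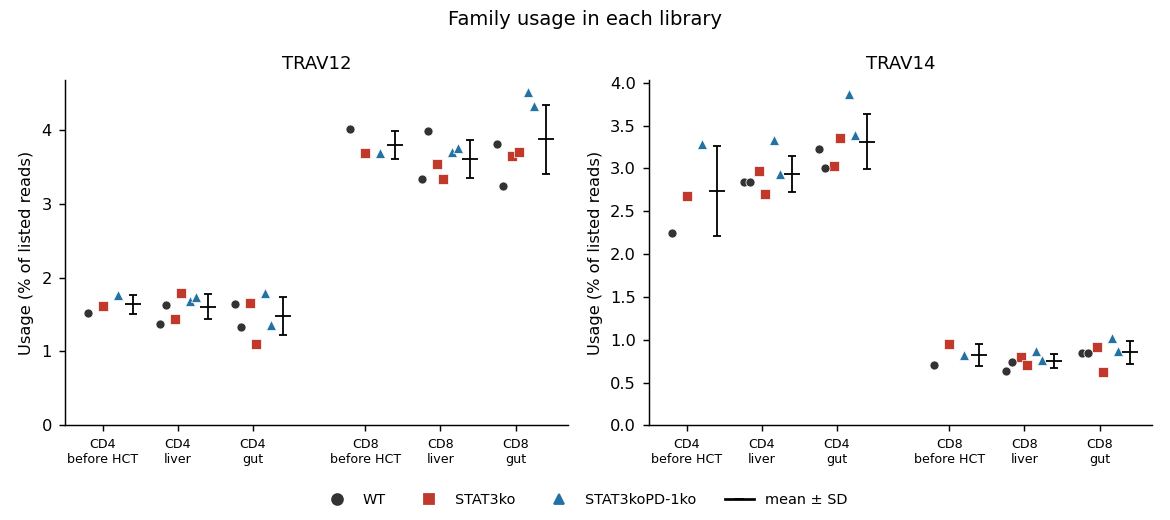
Usage of the TRAV12 (left) and TRAV14 (right) families in each of 30 libraries, as % of listed reads, by cell type and tissue, with symbols for the donor genotype and the mean ± SD of each tissue. All 15 CD8 libraries lie above all 15 CD4 libraries for TRAV12 (3.25% or more against 1.79% or less), and below them for TRAV14.

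The same difference was present in spleen before HCT and in both target tissues. Before HCT the 3 libraries had TRAV12 usages of 1.53%, 1.61% and 1.77% in CD4 and of 3.68%, 3.69% and 4.01% in CD8, and TRAV14 usages of 2.24%, 2.68% and 3.29% in CD4 and of 0.699%, 0.819% and 0.955% in CD8. Neither family had overlapping ranges. The log2 differences before HCT were 1.17 (SE 0.14) for TRAV12 and -1.61 (SE 0.12) for TRAV14, where 73.3% of families passed. In liver they were 1.12 (SE 0.10) and -1.84 (SE 0.09), where 76.7% of families passed. In gut they were 1.34 (SE 0.10) and -1.85 (SE 0.09), where 83.3% passed. All of these passed the adjusted p threshold of 0.05.

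The members of the TRAV12 family differed from each other in how far they took part. TRAV12-2, the member with the highest mean in both tables, had a usage of 0.501% to 0.923% in CD4 (median 0.748%, mean 0.737% ± 0.106, n = 15) and of 1.98% to 3.14% in CD8 (median 2.38%, mean 2.42% ± 0.317, n = 15). The ranges did not overlap, and the log2 difference of 1.59 (SE 0.07, adjusted p = 4.00e-19) was the third of 45 segments from the CD8 side. With the CD8 table's names for CDR3 listed in both tables it was 0.52, from means of 1.66% and 2.42% with overlapping ranges. Among segments 86.7% passed, 11 higher in CD8 and 28 higher in CD4, with a median difference of -0.47.

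TRAV12-1 was the rarest TRAV12 member in CD4. It ranged from 0.0630% to 0.455% there (median 0.181%, mean 0.183% ± 0.0942, n = 15) and from 0.556% to 0.936% in CD8 (median 0.781%, mean 0.778% ± 0.114, n = 15), a CD8 mean 4.26 times as high with no overlap. With the CD8 table's names for CDR3 listed in both tables the means were 0.511% and 0.778%, and the ranges overlapped. Its mean over both tables lay under the minimum of 0.5% required for a test. With no such minimum and 109 segments tested, the log2 difference was 1.69 (SE 0.12, adjusted p = 1.64e-11).

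TRAV12-3 was not higher in CD8 with the names of each table, though it lay on the CD8 side under the other namings described further on. Its usage ran from 0.458% to 0.924% in CD4 (median 0.650%, mean 0.643% ± 0.132, n = 15) and from 0.434% to 0.650% in CD8 (median 0.524%, mean 0.552% ± 0.0824, n = 15), with overlapping ranges and CD4 higher in 11 of 15 pairs. The log2 difference of -0.18 (SE 0.09) did not pass (adjusted p = 0.0654). In liver alone it was -0.38 (SE 0.13, adjusted p = 0.00796), in gut 0.10 (SE 0.13, adjusted p = 0.485), and without liver replicate 1 of all genotypes the liver value was -0.59 (SE 0.18, adjusted p = 0.00576). Without gut replicate 2 of all genotypes the gut value turned to -0.06 (adjusted p = 0.744). The liver call was lost without the pair of liver STAT3koPD-1ko replicate 2 libraries (-0.27, adjusted p = 0.0648). The difference over all tissues passed without gut replicate 2 of all genotypes (-0.29, adjusted p = 0.0035), with clonotypes of at least 3 libraries (-0.20, adjusted p = 0.0426), and also without that pair of STAT3ko (-0.22) or of STAT3koPD-1ko (-0.21) alone. Within a library TRAV12-2 had 0.677 to 1.54 times the reads of TRAV12-3 in CD4, and 3.57 to 6.04 times in CD8.

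Both listed TRAV14 members were higher in CD4, by unequal amounts. TRAV14-3 ranged from 1.48% to 2.36% in CD4 (median 1.87%, mean 1.93% ± 0.260, n = 15) and from 0.0883% to 0.310% in CD8 (median 0.216%, mean 0.204% ± 0.0623, n = 15). The lowest CD4 library thus lay far above the highest CD8 library, and the CD4 mean was 9.48 times the CD8 mean. This fold depended on the V names, since the CD4 and CD8 means were 1.93% and 0.687% with the CD4 table's names for CDR3 listed in both tables, and 0.937% and 0.204% with those of the CD8 table. Its log2 difference of -2.76 (SE 0.08, adjusted p = 1.42e-24) was the furthest to the CD4 side of all 45 segments.

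TRAV14-1 ranged from 0.760% to 1.52% in CD4 (median 1.08%, mean 1.12% ± 0.198, n = 15) and from 0.429% to 0.800% in CD8 (median 0.611%, mean 0.602% ± 0.0889, n = 15). These ranges overlapped, though CD4 was higher in 15 of 15 pairs, and the log2 difference was -0.79 (SE 0.07, adjusted p = 4.73e-12). With the names of each table, TRAV14-3 had 1.36 to 2.27 times the reads of TRAV14-1 in CD4 libraries, and 0.145 to 0.631 times in CD8 libraries. This change of order was absent when shared CDR3 had the same name in both tables, and present when they were left out (mean TRAV14-3 and TRAV14-1 usage of 1.72% and 0.867% in CD4, and of 0.178% and 0.280% in CD8). With the CD4 table's names TRAV14-3 was the higher in CD8 too (mean 0.687% against 0.497%), and with the CD8 table's names TRAV14-1 was the higher in CD4 too (1.61% against 0.937%). For tissues taken singly, TRAV12-2, TRAV14-1 and TRAV14-3 passed before HCT (80% of segments passed), in liver (86.7%) and in gut (80%), and TRAV12-3 only in liver, with the difference between liver and gut tested further on.

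**Figure D2:**
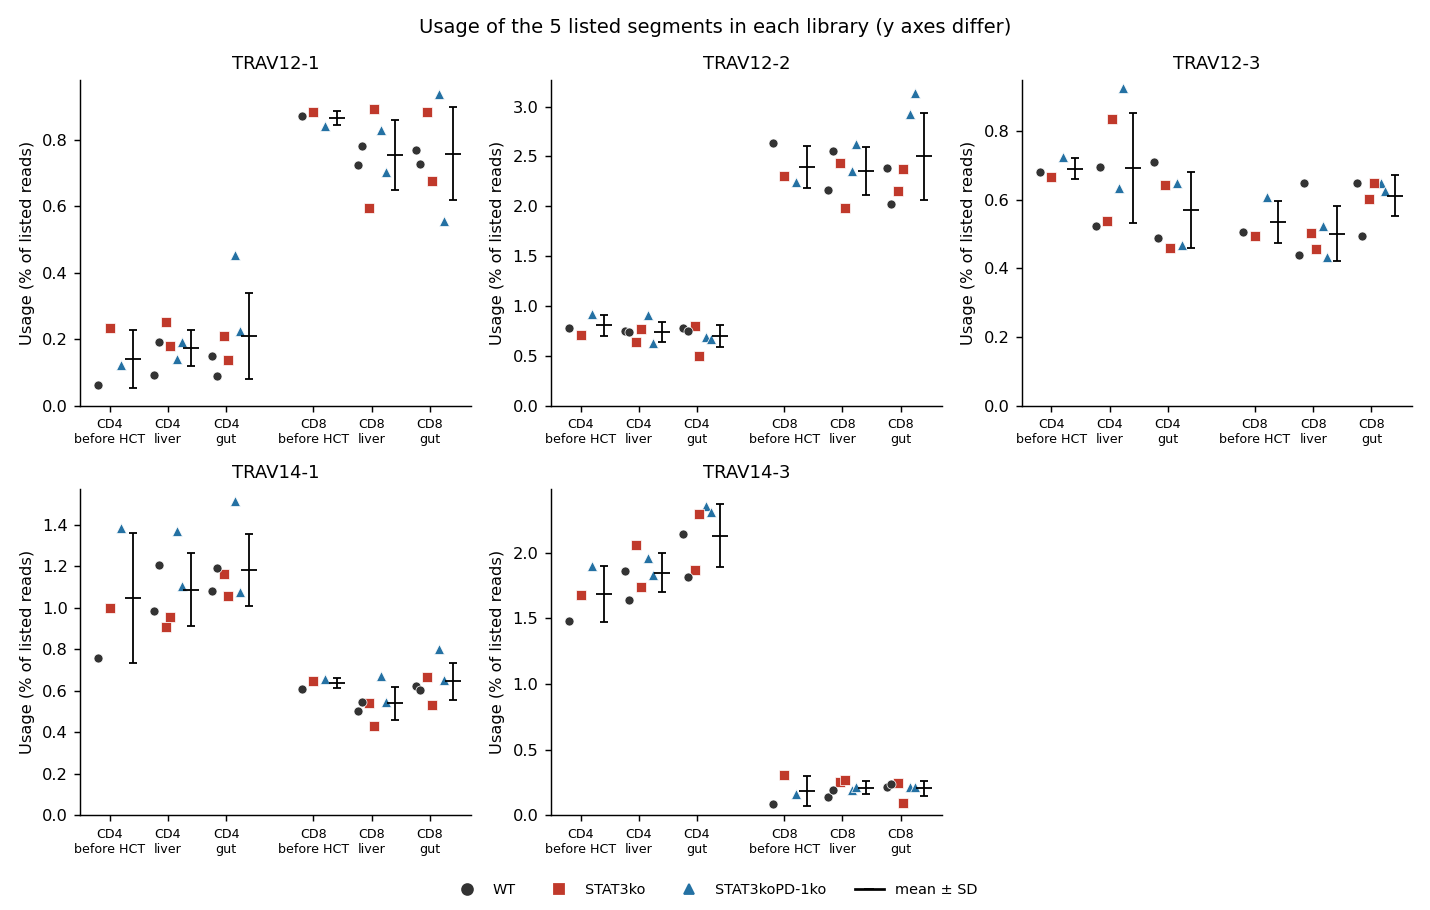
Usage of the 5 listed members in each of 30 libraries, as % of listed reads, by cell type and tissue, with symbols for the donor genotype and the mean ± SD of each tissue (y axes differ). TRAV12-1, TRAV12-2 and TRAV14-3 separate all CD4 from all CD8 libraries, TRAV14-1 overlaps slightly, and TRAV12-3 has no separation (0.458% to 0.924% against 0.434% to 0.650%). The share of all segments with such a separation is not given here.

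The D and N copies that could be tested had the direction of their family. Of the 6 TRAV12 copies, 2 passed the minimum usage and both were higher in CD8. TRAV12N-3, a copy of TRAV12-3, had 1.83% ± 0.371 in CD4 and 7.41% ± 0.702 in CD8 (n = 15 each), a log2 difference of 1.97, and TRAV12D-2 had a difference of 0.65. TRAV12D-1, too rare to be tested, lay on the other side with 0.353% ± 0.0955 in CD4 and 0.0887% ± 0.0225 in CD8. Of the 6 TRAV14 copies, 4 were tested and all were higher in CD4, with log2 differences of -2.72 for TRAV14N-3 (4.91% ± 0.556 in CD4, 0.663% ± 0.114 in CD8), -2.32 for TRAV14D-2, -2.09 for TRAV14D-3-DV8 and -0.59 for TRAV14D-1. The untested TRAV14N-1 had 0.000426% ± 0.00133 in CD4 and 0.105% ± 0.228 in CD8. Of the TRAV14 segments tested, TRAV14-1 and TRAV14D-1 thus had the smallest differences. Summed over members and copies, TRAV12 took 4.66% ± 0.457 of CD4 and 12.8% ± 0.752 of CD8 reads, and TRAV14 took 17.2% ± 0.988 of CD4 and 4.32% ± 0.463 of CD8 reads (n = 15 each). D and N copies are alike in sequence, and most pairs have no mismatch over the last 270 bases, so these bases do not tell the copies of such a pair apart, and how reads were divided between them is uncertain. Bases further upstream were not compared. TRAV12-3 differs from TRAV12N-3 at 8 of these bases, so part of a segment's reads may also have been assigned to its copy.

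The V name of a row was the least certain part of the data. Each table holds a CDR3 amino acid sequence once, with 1 V name. Within a table, reads of the same CDR3 with another V segment are counted under that name and cannot be separated. The usage of a member may thus include reads of other segments and miss reads of its own, which the alternatives compared below cannot undo. There were 25521 CDR3 in both tables. Of those named TRAV12 in the CD4 table (855), 16.1% had the same segment name in the CD8 table and 63.5% a TRAV12 name of any kind, copies included. Of those named TRAV14 in the CD4 table (495) the shares were 10.1% and 31.1%. Seen from the CD8 table they were 9.67% and 40.0% for TRAV12 (1427) and 12.2% and 51.8% for TRAV14 (411), while over all shared CDR3 they were 29.9% and 57.5%. The J name was the same for 99.9%. Shared CDR3 held 79.3% ± 5.75 of the TRAV12 reads and 78.7% ± 5.01 of the TRAV14 reads in CD4, and 74.0% ± 6.14 and 84.2% ± 7.63 in CD8 (n = 15 each).

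The comparison was therefore repeated with 1 name per CDR3, a choice made after seeing the data. With the CD4 table's name used in both tables, the log2 differences were 0.80 (SE 0.06) for TRAV12 and -1.31 (SE 0.06) for TRAV14. With the CD8 table's name they were 0.47 (SE 0.05) and -1.55 (SE 0.06), and with shared CDR3 left out they were 1.48 (SE 0.13) and -2.29 (SE 0.15). All 6 passed, and the ranges of CD4 and CD8 libraries did not overlap in any of them, but the size of the TRAV12 difference ran from 0.47 to 1.48 with the names used. With each clonotype counted once whatever its reads, the differences were 1.08 (SE 0.02) and -1.33 (SE 0.04).

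The naming also moved single members, TRAV14-3 the most. TRAV14-3 had a log2 difference of -1.38 with the CD4 table's names, -1.79 with those of the CD8 table and -2.73 without shared CDR3. TRAV14-1 had -1.06, -1.28 and -1.34 in the same order, so that under either common naming the 2 members lay much closer together than in the tables as deposited. TRAV12-2 had 1.00, 0.52 and 1.99, all passing, with overlapping ranges for the second. TRAV12-1 reached the minimum usage under 2 of the 3, with 0.55 for the CD8 table's names and 1.39 without shared CDR3, and passed in both, with overlapping ranges. TRAV12-3 turned to the CD8 side with 0.19 (adjusted p = 0.0382), 0.10 (adjusted p = 0.229) and 0.32 (adjusted p = 0.0634). In gut TRAV12-3 passed on the CD8 side with either table's names (0.40, adjusted p = 0.00599, and 0.34, adjusted p = 0.00781), and its liver call on the CD4 side was lost with both (0.08, adjusted p = 0.557, and -0.04, adjusted p = 0.734).

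**Figure D3:**
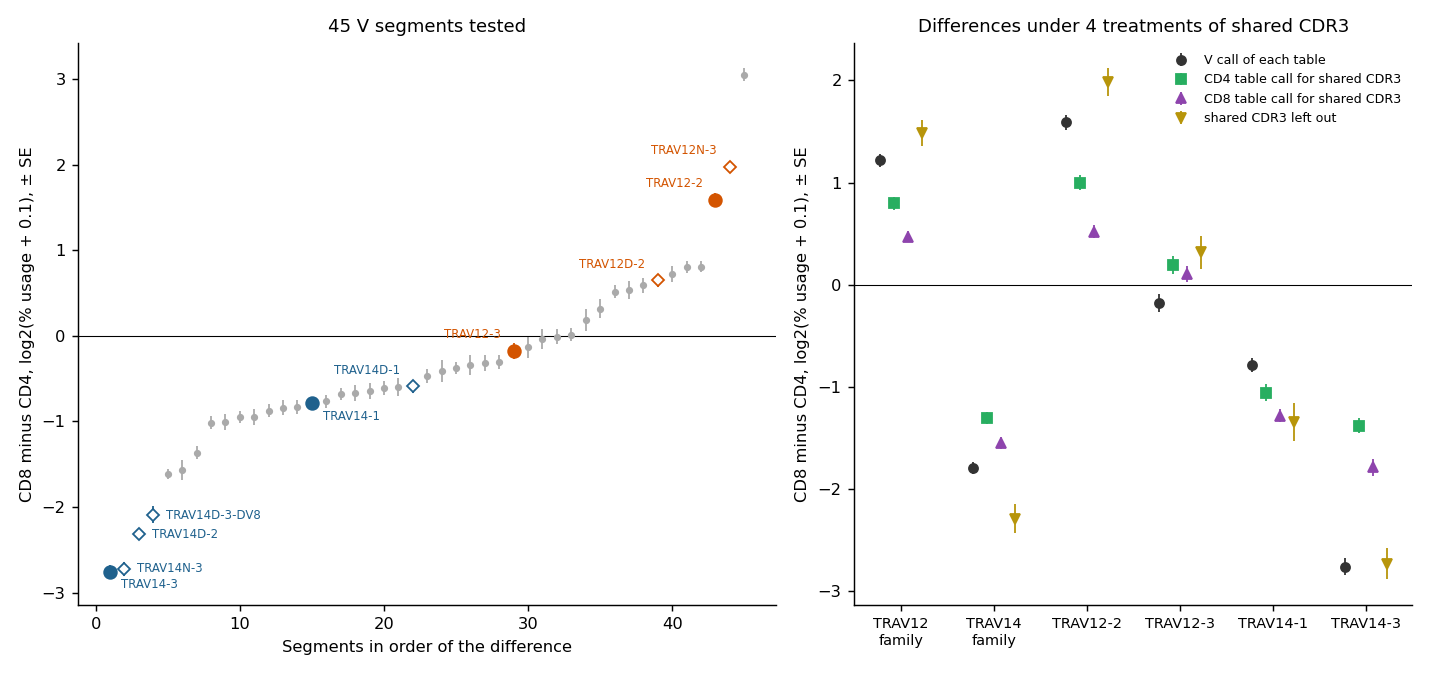
Left, the difference in usage (CD8 minus CD4, log2(% + 0.1), ± SE) of the 45 V segments tested, in order, with the TRAV12 and TRAV14 members as filled circles and their D and N copies as open diamonds. Right, the same difference for both families and 4 members under 4 ways of naming the CDR3 that both tables list, with all TRAV12 family values above 0 (0.47 to 1.48), all TRAV14 values below it and TRAV12-3 on either side.

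The number of clonotypes of a member differed between the cell types as its usage did, but the order of the members was another one. In CD4 there were 277 TRAV12-1, 810 TRAV12-2, 598 TRAV12-3, 496 TRAV14-1 and 969 TRAV14-3 clonotypes, and in CD8 there were 722, 2063, 564, 387 and 254. TRAV14-1 thus had fewer clonotypes than TRAV12-3 in both tables, with the higher usage in both. Public clonotypes, those listed above 0 in all 15 libraries of a table, numbered 11 for TRAV14-1 and 24 for TRAV14-3 in CD4, against 3 and 0 in CD8. For TRAV12-1, TRAV12-2 and TRAV12-3 they numbered 0, 6 and 5 in CD4, against 5, 24 and 2 in CD8. As a share of their clonotypes, 2.39% of TRAV14 and 0.653% of TRAV12 clonotypes were public in CD4, where 1.24% of all listed ones were, and 0.468% and 0.926% in CD8, where 1.04% of all listed ones were. The Shannon effective number, the exponential of the entropy of clonotype shares within a family, was 179.6 ± 78.5 for TRAV12 and 166.2 ± 60.5 for TRAV14 in CD4, and 346.8 ± 126.1 and 62.2 ± 23.8 in CD8 (n = 15 each). The commonest clonotype of a family held 5.49% ± 3.03 of TRAV12 and 4.96% ± 1.77 of TRAV14 reads in CD4, and 3.15% ± 1.27 and 11.7% ± 6.90 in CD8. Each family thus had the higher effective number, and the lower share of its commonest clonotype, in the cell type that used it more, on average.

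The clonotypes with the highest mean usage are shown for the members on the side where their family was higher, because they show how much of such a CDR3 is germline sequence. Capitals mark bases that match neither the germline V nor the germline J segment, and a sequence without capitals needs no added base.
TRAV12-1 and TRAJ12, CD8: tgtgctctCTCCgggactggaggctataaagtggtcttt
TRAV12-2 and TRAJ22, CD8: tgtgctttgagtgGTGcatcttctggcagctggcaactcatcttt
TRAV12-3 and TRAJ21, CD8: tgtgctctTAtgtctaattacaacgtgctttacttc
TRAV14-1 and TRAJ37, CD4: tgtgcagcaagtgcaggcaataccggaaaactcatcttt
TRAV14-3 and TRAJ30, CD4: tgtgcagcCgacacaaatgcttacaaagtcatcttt

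Percentages of single clonotypes are of all reads of a library, as deposited, and not of the listed reads. The bases shown are 1 nucleotide sequence per CDR3 amino acid sequence. Libraries and percentages are those of the amino acid sequence, whatever its bases. For the TRAV14-1 clonotype with TRAJ37 the sequence shown held no added base, and its CDR3 was in all 15 CD4 libraries, at 0.0227% to 0.191% (mean 0.0725% ± 0.0385). The CD8 table lists the same CDR3 as TRAV5-4, in 12 libraries with a mean of 0.00295%. The TRAV14-3 clonotype with TRAJ30, shown with 1 added base, was in all 15 CD4 libraries at 0.0263% to 0.228% (mean 0.0671% ± 0.0505). It was about as frequent in CD8, with a mean of 0.0656% in 15 libraries, but named TRAV4N-3 there, so this CDR3 counted for TRAV14-3 in one table only. The 3 TRAV12 clonotypes were in all 15 CD8 libraries, with means of 0.0536% ± 0.0490 for TRAV12-1, 0.0380% ± 0.0331 for TRAV12-2 and 0.0351% ± 0.0225 for TRAV12-3. In the CD4 table their CDR3 were named TRAV6-6, TRAV6N-6 and TRAV6-5.

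The TRAJ partners of the members followed their place in the locus at its proximal end. TRAJ numbers fall with distance from the V segments, and the read-weighted mean TRAJ number in CD4 was 45.9 ± 1.22 for TRAV14-3, the member nearest the TRAJ array. It was 36.3 ± 1.68 for TRAV12-3, 34.4 ± 1.16 for TRAV12-2, 34.1 ± 1.52 for TRAV14-1 and 33.2 ± 2.76 for TRAV12-1 (n = 15 each). In CD8 the means were 45.1 ± 2.71, 35.1 ± 1.89, 33.9 ± 0.486, 30.7 ± 2.23 and 31.0 ± 2.17 in the same order. TRAV14-3 had a higher mean TRAJ number than each other member in 15 of 15 libraries of both tables. Among the distal members the order was less steady, since TRAV14-1 exceeded TRAV12-1 in 9 of 15 CD4 and 5 of 15 CD8 libraries, and TRAV12-2 exceeded TRAV14-1 in 10 and 12.

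In CD4, TRAV14-3 was joined most often to TRAJ57 (15.6% ± 3.05 of its reads), TRAJ52 (9.60% ± 2.16) and TRAJ53 (7.71% ± 2.43), all at the V-proximal end of the array. TRAV14-1, from the same family, was joined most often to TRAJ37 (13.7% ± 4.12), TRAJ31 (12.2% ± 3.45) and TRAJ27 (6.02% ± 3.57). TRAV12-2 led with TRAJ31 (9.46% ± 3.45) and TRAV12-3 with TRAJ37 (12.2% ± 6.23). In CD8 the leading partners were TRAJ56 for TRAV14-3 (9.97% ± 6.85), TRAJ22 for TRAV14-1 (10.2% ± 5.04), TRAJ37 for TRAV12-2 (8.35% ± 3.96), TRAJ21 for TRAV12-3 (9.12% ± 4.58) and TRAJ12 for TRAV12-1 (9.003% ± 6.22). TRAJ22 was also the commonest partner over all CD8 reads, at 9.09% ± 0.774.

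**Figure D4:**
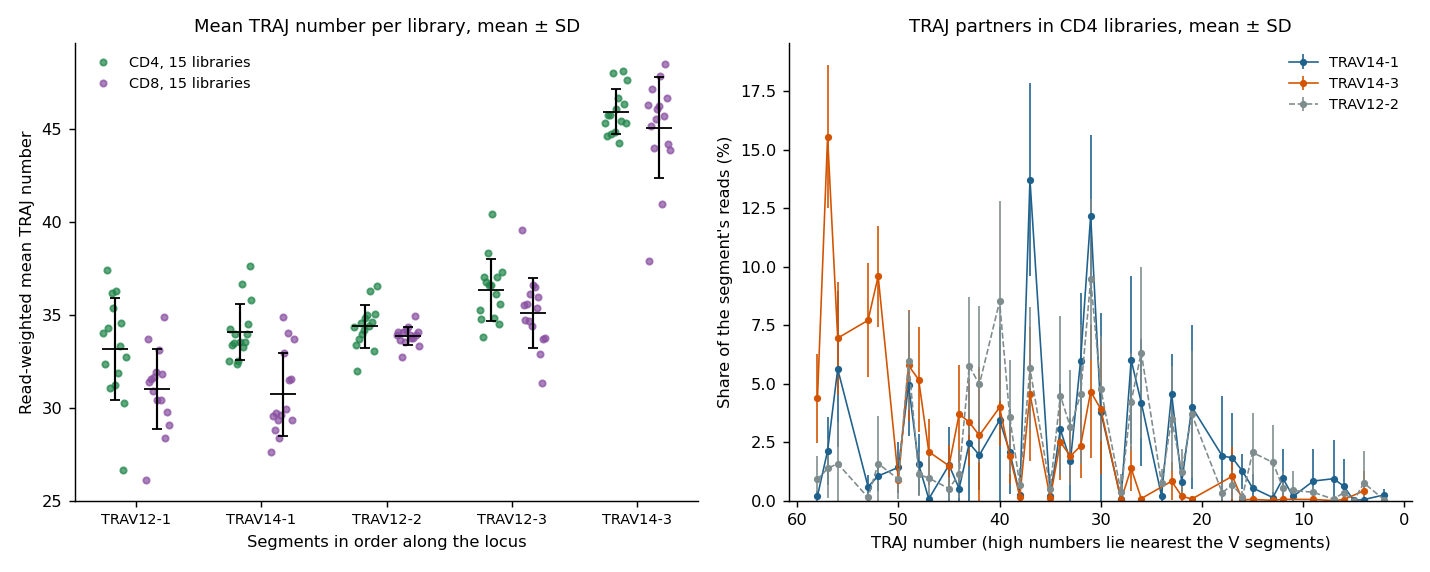
Left, the read-weighted mean TRAJ number of the 5 listed members in each library (15 per cell type), with the mean ± SD and the segments in their order along the locus. Right, the share of each TRAJ segment among CD4 reads of TRAV14-1, TRAV14-3 and TRAV12-2 (mean ± SD, n = 15), with TRAV14-3 peaking at TRAJ57 (15.6%) and TRAV14-1 at TRAJ37 (13.7%).

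Compared between cell types, the mean TRAJ number of TRAV14-1 was 3.36 lower in CD8 (SE 0.65, adjusted p = 0.000138, a value of -3.36 for CD8 minus CD4), and those of TRAV12-2 (-0.51), TRAV12-3 (-1.22) and TRAV14-3 (-0.86) did not pass (adjusted p = 0.256, 0.0653 and 0.259). Of all segments 53.3% passed, 20 of 24 of them lower in CD8. With the CD4 table's names TRAV14-1 had a difference of -1.39 that did not pass (adjusted p = 0.24), while TRAV12-2 (-1.49, adjusted p = 0.00559) and TRAV14-3 (-1.86, adjusted p = 0.00526) passed. With the CD8 table's names TRAV14-1 (-3.43, adjusted p = 0.000105) and TRAV12-2 (-1.22, adjusted p = 0.00347) passed, and TRAV14-3 had -1.48 (adjusted p = 0.0834). Without shared CDR3 TRAV14-1 had -6.95 (SE 2.28, adjusted p = 0.0359), and TRAV12-2 did not pass (-2.04, adjusted p = 0.0969). With each clonotype counted once TRAV14-1 (-2.30) and TRAV14-3 (-0.94, adjusted p = 0.014) passed. TRAV12-3 passed with clonotypes of at least 3 libraries (-1.51, adjusted p = 0.0191). It also passed without the pair of libraries before HCT of WT (-1.61), STAT3ko (-1.36) or STAT3koPD-1ko (-1.37), or without that of gut WT replicate 1 (-1.34), with adjusted p-values of 0.0076 to 0.0489.

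With the names of each table, mean CDR3 length, in amino acids and weighted by reads, was longer in CD8 for TRAV14-3 and shorter for TRAV12-2. Both the direction and the amount depended on the V names. TRAV14-3 had 13.4 ± 0.126 in CD4 and 13.8 ± 0.304 in CD8 (n = 15 each), a difference of 0.40 (SE 0.06, adjusted p = 7.97e-06), and TRAV12-2 had 13.4 ± 0.155 and 13.2 ± 0.178, a difference of -0.15 (SE 0.06, adjusted p = 0.0485). TRAV12-3 (0.15, adjusted p = 0.137) and TRAV14-1 (0.15, adjusted p = 0.0792) did not pass, and 53.3% of all segments did. The call for TRAV14-3 turned with the naming, since with the CD4 table's names its CDR3 were shorter in CD8 by a passing difference of -0.33 (adjusted p = 0.00152). With the CD8 table's names its difference was 0.18 (adjusted p = 0.0147). The call for TRAV12-2 was lost in 10 of the 15 fits without 1 pair of libraries, with adjusted p-values of up to 0.112 (without liver STAT3ko replicate 1). It was also lost with the CD4 table's names (-0.04) and with the CD8 table's names, where the sign turned (0.015). With same-numbered CD4 and CD8 libraries as a replicate block its adjusted p was 0.0657. Without shared CDR3 the differences were larger, with 0.79 for TRAV14-3 (adjusted p = 7.72e-05), -0.63 for TRAV12-2 (adjusted p = 0.000135) and 0.61 for TRAV12-3, which then passed (adjusted p = 0.00512). With each clonotype counted once all 4 members passed, with 0.43, -0.19 and 0.13 for these and -0.20 for TRAV14-1.

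Inside each cell type no family or member passed the test for tissue, time or genotype. In gut and liver, TRAV12 usage was 1.48% ± 0.260 and 1.61% ± 0.1705 in CD4 (log2 difference, gut minus liver, -0.12, SE 0.12, adjusted p = 0.545), and 3.87% ± 0.465 and 3.61% ± 0.258 in CD8 (0.09, SE 0.08, adjusted p = 0.395). TRAV14 usage was 3.31% ± 0.318 and 2.94% ± 0.214 in CD4 (0.17, SE 0.08, adjusted p = 0.163), and 0.851% ± 0.129 and 0.750% ± 0.0782 in CD8 (0.15, SE 0.09, adjusted p = 0.231), with n = 6 in each tissue. The ranges overlapped in all 4 cases. In CD4, TRAV14 usage was higher in each gut library than in the liver library of the same genotype and number. With a replicate block this difference did not pass either (0.17, SE 0.08, adjusted p = 0.135). Without gut replicate 2 of all genotypes the TRAV12 difference in CD4 turned to 0.08 (adjusted p = 0.638) and the TRAV14 difference in CD8 was 0.27 (SE 0.08, adjusted p = 0.106). Without liver replicate 1 the TRAV12 difference in CD4 was -0.22 (adjusted p = 0.481). With D and N copies added to the family, TRAV14 in CD8 passed at 0.19 (adjusted p = 0.0302). Neither family passed in limma, also not at an unadjusted p of 0.05, while 21.9% of families passed in CD4 and 0% in CD8, where 8 had an unadjusted p below 0.05.

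At the level of members none passed for gut against liver, where 15.2% of segments did in CD4 and 12.2% in CD8. The nearest were TRAV12-3 (0.25, SE 0.10) and TRAV14-1 (0.22, SE 0.09) in CD8, both with an adjusted p of 0.0922 and an unadjusted p under 0.05. Of TRAV12-3, the gut minus liver difference was 0.48 higher in CD8 than in CD4 (SE 0.19, unadjusted p = 0.0159, adjusted p = 0.141), so the liver-only call of this segment was not shown to differ between tissues. No member passed this test, as against 2.33% of segments, nor did TRAV12 (0.21, adjusted p = 0.344) or TRAV14 (-0.01, adjusted p = 0.919), as against 3.33% of families. Without gut replicate 2 of all genotypes the TRAV12 value was 0.06 (adjusted p = 0.813).

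From before HCT to day 6, TRAV12 had log2 differences of -0.09 (SE 0.12) in CD4 and -0.03 (SE 0.09) in CD8, and TRAV14 had 0.20 (SE 0.09, adjusted p = 0.148) in CD4 and -0.04 (SE 0.11) in CD8. Of families 0% passed in either table (limma, with an unadjusted p below 0.05 for 10 in CD4 and 2 in CD8), and of segments 0% in CD4 (8 unadjusted) and 4.88% in CD8, none of them a member. Without liver replicate 1, which shared reads with the libraries before HCT, the TRAV14 difference in CD4 was 0.17 (SE 0.11, adjusted p = 0.332). With 1 library left out it ran from 0.097 to 0.277. The 3 CD4 libraries before HCT, 1 per genotype, were spread widely, with TRAV14 at 2.24% in WT, 2.68% in STAT3ko and 3.29% in STAT3koPD-1ko.

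Donor genotype gave no call for either family. On day 6, TRAV12 usage in CD8 was 3.33%, 3.98%, 3.80% and 3.25% in the WT libraries (liver 1 and 2, gut 1 and 2), 3.53%, 3.33%, 3.64% and 3.70% in STAT3ko and 3.71%, 3.76%, 4.51% and 4.32% in STAT3koPD-1ko. The STAT3koPD-1ko values lay above all STAT3ko values and overlapped those of WT. The log2 differences were 0.19 (SE 0.10, adjusted p = 0.649) between STAT3koPD-1ko and STAT3ko and 0.18 (SE 0.10, adjusted p = 0.637) between STAT3koPD-1ko and WT. TRAV14 in CD8 had 0.20 (SE 0.12) and 0.18 (SE 0.12) for the same contrasts, and in CD4 0.16 (SE 0.10) and 0.17 (SE 0.10). These contrasts share the STAT3koPD-1ko libraries. With 1 library left out, TRAV14 in CD8 had 0.080 to 0.261 between STAT3koPD-1ko and STAT3ko. TRAV12 in CD8 then had 0.109 to 0.251 between STAT3koPD-1ko and WT. STAT3ko and WT differed by -0.02 to 0.01 in both families and tables. In limma 0% of families passed in any genotype contrast, with an unadjusted p below 0.05 for 1 to 3 families per contrast.

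Among members in CD8, TRAV12-2 (0.29, SE 0.11) and TRAV14-1 (0.26, SE 0.11) had the largest differences between STAT3koPD-1ko and STAT3ko, with an unadjusted p of 0.025 and 0.0292 and an adjusted p of 0.30 each. In this contrast 2.44% of segments passed, and in the others 0% did (limma, 0 to 5 segments with an unadjusted p below 0.05). TRAV12-2 in CD8 was 2.76% ± 0.343 in STAT3koPD-1ko, 2.24% ± 0.210 in STAT3ko and 2.28% ± 0.235 in WT (n = 4 each). The STAT3koPD-1ko range of 2.35% to 3.14% overlapped the STAT3ko range of 1.98% to 2.44%.

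**Figure D5:**
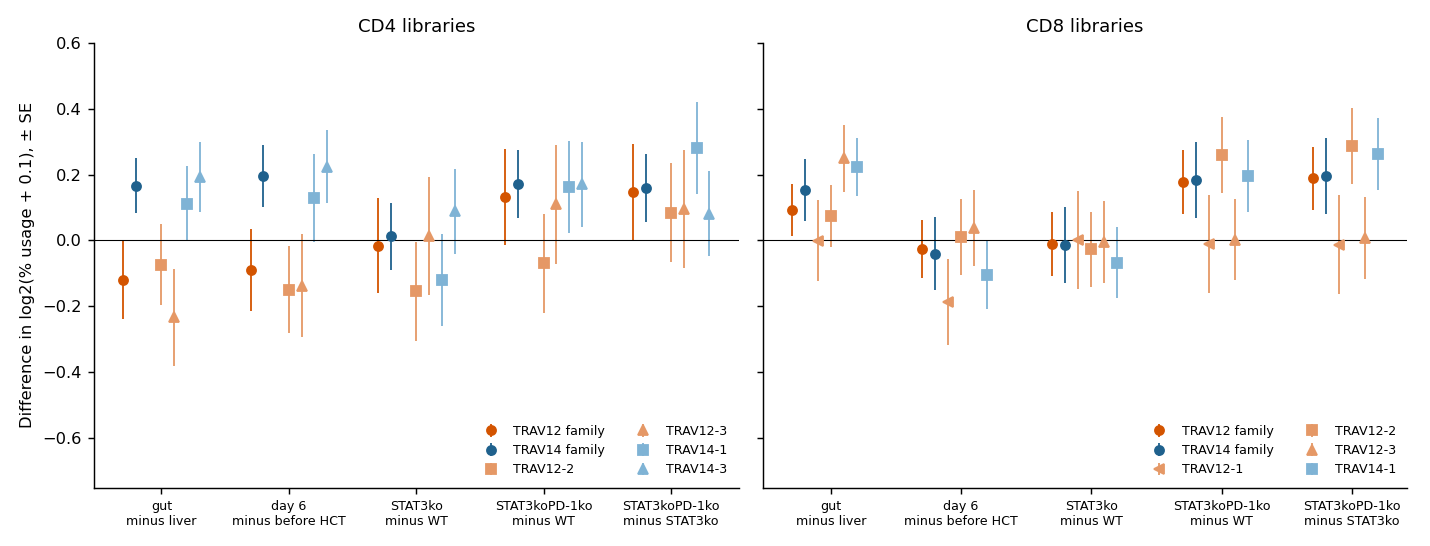
Differences in usage within the CD4 (left) and CD8 (right) libraries, log2(% + 0.1) ± SE, for gut minus liver, day 6 minus before HCT and the 3 genotype contrasts on day 6, for both families and the members that passed the minimum usage of 0.5%. None passed the adjusted p threshold, and all values lie between -0.23 and 0.29.

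Host-reactive clonotypes were described with the thresholds of the study, a mean fraction below 1e-05 before HCT and above 0.0001 over the 2 libraries of a tissue and genotype on day 6. Over the 6 sets of a table (2 tissues and 3 genotypes), 35 of 3040 host-reactive CD4 clonotypes were TRAV12 and 44 were TRAV14, a mean share per set of 1.11% ± 0.476 and 1.36% ± 0.754. TRAV12 and TRAV14 made up 2.63% ± 0.0666 and 2.63% ± 0.191 of the clonotypes seen in these libraries, so both shares were lower among host-reactive clonotypes, in 6 of 6 sets. In CD8, TRAV12 gave 93 and TRAV14 gave 35 of 3533, or 2.67% ± 1.16 and 1.04% ± 0.441, against 5.62% ± 0.105 and 1.06% ± 0.0623 of the clonotypes seen. TRAV12 was again lower in 6 of 6 sets, whereas TRAV14 was above its share in 2 of 6. These are descriptions with no test. The sharing of reads between the libraries before HCT and liver replicate 1 touches the liver sets, and the smaller sharing with gut replicate 1 touches the gut sets. The part of either in these counts was not tested.

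By genotype, in the order WT, STAT3ko and STAT3koPD-1ko, TRAV12 gave 22 of 655, 19 of 748 and 11 of 490 host-reactive clonotypes of CD8 liver, and 8 of 555, 11 of 608 and 22 of 477 of CD8 gut. TRAV12 in CD4 gave 2 of 381, 6 of 536 and 9 of 540 in liver and 4 of 378, 4 of 596 and 10 of 609 in gut. The order of the genotypes was thus opposite in the 2 tissues for TRAV12 in CD8, while in CD4 STAT3koPD-1ko had the highest share in both. TRAV14 in CD8 gave 0.458%, 0.802% and 1.43% in liver and 0.901%, 0.987% and 1.68% in gut, in the same order in both tissues, from 3 to 8 clonotypes a set. TRAV14 in CD4 gave 4 of 381, 4 of 536 and 5 of 540 in liver, with the highest share in WT, and 3 of 378, 14 of 596 and 14 of 609 in gut, with the lowest share in WT. With 1 set per tissue and genotype these differences were not tested.

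For each family and cell type the WT host-reactive clonotype with the highest mean over both libraries of its tissue is shown, among those listed in both. Bases outside the germline segments are again in capitals, for 1 nucleotide sequence per CDR3.
TRAV12-3 and TRAJ23, CD4, WT gut: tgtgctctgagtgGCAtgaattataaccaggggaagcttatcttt
TRAV14-3 and TRAJ48, CD4, WT liver: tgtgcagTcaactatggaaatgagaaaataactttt
TRAV12-2 and TRAJ12, CD8, WT liver: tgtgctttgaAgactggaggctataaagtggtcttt
TRAV14-1 and TRAJ12, CD8, WT gut: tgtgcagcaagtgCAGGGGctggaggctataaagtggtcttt

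Both TRAV12 clonotypes were very uneven between the 2 replicates. The TRAV12-3 clonotype had 0.0287% and 0.000443% in the WT gut libraries, and the TRAV12-2 clonotype 0.000805% and 0.0352% in the WT liver libraries. The TRAV14-3 clonotype had closer values, with 0.0222% and 0.0103% in WT liver, and was listed above 0 in 12 of 15 libraries. The TRAV14-1 clonotype, shown with 6 bases outside the germline segments, had 0.00758% and 0.0257% in WT gut and 0.0266% in WT liver replicate 2, and was above 0 in 4 libraries. Its CDR3 was named TRAV14N-3 in the CD4 table, where it was listed in 1 library.

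The families and segments whose usage moved most like these across libraries were named by Pearson r over the 15 libraries of a table, which share donors, tissues and the listing of clonotypes. For TRAV12 in CD4 they were TRAV9 (r = 0.79), TRAV13 (0.76) and TRAV9-1 (0.75), and for TRAV14 in CD4 TRAV5-4 (0.69), TRAV19 (0.67) and TRAV7-4 (0.65). In CD8 they were TRAV14-1 (0.65), TRAV19 (0.63) and TRAV13N-1 (0.55) for TRAV12, and TRAV13N-1 (0.82), TRAV7D-3 (0.69) and TRAV13N (0.69) for TRAV14. The lists of the 2 tables had TRAV19 in common, for TRAV14 in CD4 and for TRAV12 in CD8.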

How the data were processed

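Libraries were made with a SMARTer mouse TCR kit and sequenced on a MiSeq. The authors assembled CDR3 with MiXCR 3.0 and joined libraries with VDJtools 1.1.7 by CDR3 amino acid sequence, keeping those of at least 2 of 18 libraries, of which 15 were used here. The submitters' processing notes name mm10. The deposited values are fractions of the reads of a library, formed before the join. The CD4 table listed 62533 clonotypes and that of CD8 cells 59365. Usage was the sum of a segment's or family's fractions divided by the library's listed total, in percent. Single clonotypes kept the deposited fraction. limma 3.58.1 in R 4.3.3 tested log2(percent + 0.1) of all families or segments whose mean usage reached 0.5%, with Benjamini-Hochberg adjustment and a threshold of 0.05. Tissue and genotype were terms where they were not the contrast (tissue by genotype strata for CD8 against CD4). Germline sequence came from GENCODE M21. Scripts were tested on simulated data. Members and lists were chosen with earlier results of these data known. Named were all members, both families, D and N copies with a call, the 3 most alike features, 3 TRAJ partners and the commonest clonotypes. P-values measure the spread between these samples, 2 batches of pooled mice per the study's methods, which do not say which sample is of which batch, and CD4 and CD8 samples may share recipients. Alternatives left out single libraries, rare clonotypes or shared CDR3, or changed the pseudocount, filter, denominator and V names.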

Additional observations from a re-analysis of the deposited data

Results flagged for a closer look

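In groups of 6 libraries of a table and tissue, 4 values stood apart from the rest by the gap to their nearest neighbour, out of 28 groups examined. By the critical value used for this gap, chance alone sets apart about 1 in 20 groups. In CD4 gut, STAT3koPD-1ko replicate 1 had the highest TRAV12-1 usage, 0.455%, with the next at 0.225%. The same library had the highest TRAV14-1 usage, 1.52%, with the next at 1.19%. A single TRAV12-1 clonotype with TRAJ35, which was listed in 2 libraries, held 0.266% of all its reads, listed or not. In CD8 gut, WT replicate 2 had the lowest TRAV12-3 usage, 0.495%, with the next at 0.603%, and STAT3ko replicate 2 had the lowest TRAV14-3 usage, 0.0927%, with the next at 0.215%.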

How the results depend on the processing

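The difference between CD8 and CD4 held for both families in every alternative, with 1.18 to 1.24 (TRAV12) and -1.83 to -1.77 (TRAV14) when 1 pair of libraries was left out. Same-numbered samples deviated together in gut (r of 0.29 to 0.40 between cell types and 0.31 to 0.63 between genotypes) and less so in liver (-0.14 to 0.13 and -0.14 to 0.29), and between liver and gut in CD4 (0.17 to 0.24) more than in CD8 (0.0045 to 0.040). With a replicate block the differences were 1.22 and -1.80, and no usage call of a family or member changed. The block left 1 member with a called length difference in place of 2. The block was not fitted for day 6 against before HCT, where all libraries before HCT have the same number and genotype was a term.

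With D and N copies added, 1 family passed for gut against liver in CD8 in place of 0, TRAV14 at 0.19 (adjusted p = 0.0302). For members there, 1 passed in place of 0 when only CDR3 from C to F or W were kept (TRAV14-1, 0.26), and 0 to 1 when 1 library was left out (TRAV12-3, 0.33, without CD8 liver WT replicate 2). Members called for CD8 against CD4 in gut numbered 5 in place of 3 with the CD8 table's names. Members with a called length numbered 4 with each clonotype counted once, 1 with clonotypes of at least 3 libraries and with either table's names, and 1 to 3 with 1 pair left out. Members with a called TRAJ difference numbered 2 in place of 1 with each of these settings except the pairs, which gave 1 to 2. Before these changes 80% of all segments passed in gut, and 53.3% each for length and for TRAJ number. The shares of all segments under the alternatives are not given here, so the counts of members cannot be set against them. Among values past the threshold before or after the change, those that turned in sign were the length of TRAV12-2 with the CD8 table's names (0.015), of TRAV14-1 with each clonotype once (-0.20) and of TRAV14-3 with the CD4 table's names (-0.33), and TRAV12-3 usage with the CD4 table's names (0.19, in liver 0.0842) and in liver without shared CDR3 (0.083). A further 76 sign changes without 1 library or pair, and 63 under other alternatives, had neither value past the threshold. The cause was not tested. Unknown depth and the listing of clonotypes by library number limit what rare clonotypes can show.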
